A study of Mus musculus with 24 samples.

Results

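The circadian clock output genes are Dbp, Per1, Per2, Per3, Nr1d1, Nr1d2, Tef, Hlf and Ciart, and they were followed here with Arntl, the gene of the clock activator BMAL1. These 10 genes were chosen by symbol from the 22274 genes of the deposited table, and all 10 passed the filter on low counts in every comparison. RNA was sequenced from mouse brain in 8 groups of 3 libraries each, from male C57BL/6J mice. In 6 groups the tissue was hypothalamus containing the supraoptic and paraventricular nuclei: Sham-operated mice (Sham, labelled day 0), mice with an electrical lesion of the pituitary stalk (PEL) at day 3 (PEL_3d) or day 10 (PEL_10d), and the same 3 conditions with growth hormone (Sham_GH, PEL_3d_GH, PEL_10d_GH). In the other 2 groups it was hippocampus, from Sham-operated mice (HIP_Sham) and from lesioned mice at day 10 (HIP_PEL_10d). The lesion is made with electric current at the stalk that joins hypothalamus and pituitary. The dose and schedule of growth hormone, the time of day at which tissue was taken, and whether libraries were separate animals are not given in the sources used here. P-values therefore measure the spread between these libraries, and the levels cannot be placed on the daily cycle. Differences between groups in these genes cannot be told apart from differences in the time of day at which tissue was taken.

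The mammalian clock is a feedback loop in which BMAL1 and CLOCK bind E-box elements and switch on the Per and Cry genes, whose proteins then inhibit BMAL1 and CLOCK. The same activators drive Nr1d1 and Nr1d2, which encode the nuclear receptors REV-ERB alpha and beta, repressors of Arntl. They also drive Dbp, which with Tef and Hlf encodes the PAR bZIP transcription factors that act on D-box elements, and Ciart, which encodes a repressor of the loop. Transcripts of these genes rise and fall over the day, with Arntl roughly opposite in phase to Dbp, Nr1d1 and the Per genes, and the master pacemaker lies in the suprachiasmatic nucleus of the hypothalamus.

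A pair of libraries stood against their labels. The library labelled Sham 1 had 0.453 FPKM of the hypothalamic peptide gene Avp, where the other Sham libraries had 140 and 223, and its summed level of 12 hippocampal markers was 409 FPKM, where theirs was 58.8 and 59.2. It also had 14320 FPKM of the choroid plexus gene Ttr. The library labelled HIP_Sham 1 had 139 FPKM of Avp and 57.7 FPKM of the hippocampal markers, where the other HIP_Sham libraries had at most 0.309 and at least 517 FPKM. One further library, HIP_Sham 3, is titled as hippocampus and labelled hypothalamus in its tissue field, and it had 517 FPKM of the hippocampal markers. The study left out 1 Sham library and does not number it in the sources used here. Sham 1 was left out of the main comparisons for its marker levels, and HIP_Sham 1 was kept as titled. The counts of members called are also given with Sham 1 put back and without HIP_Sham 1, while the counts for the further gene lists against Sham were computed without Sham 1 only.

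The promoters of the members held matches to different elements, shown here because E-box, D-box and ROR elements are those through which the loop is known to act. RefSeq promoter windows of 300 bases (250 before and 50 after an annotated start, GRCm38.p6) were found for 9 of the 10 members, in 12 windows. They were searched on both strands for the E-box CACGTG, the D-box TTATGTAA or TTACGTAA, the ROR element GTAGGTCA to which REV-ERB proteins bind, and the cyclic AMP response element TGACGTCA. The E-box was found in 3 members, Per1, Tef and Ciart, with 3 matches in the Ciart window. It occurs in 7.15% of the 32851 mouse promoter windows searched. Per3 held 2 matches of the D-box, present in 1.06% of windows. Arntl held the ROR element, present in 0.621% of windows, and Hlf the cyclic AMP response element, present in 1.79%. The bases before the start are printed 5′ to 3′ with the match in capitals, and for Arntl, whose match begins at base 30 after the start, the match with its flanks.
Ciart, chr3:95882229-95882478, minus strand: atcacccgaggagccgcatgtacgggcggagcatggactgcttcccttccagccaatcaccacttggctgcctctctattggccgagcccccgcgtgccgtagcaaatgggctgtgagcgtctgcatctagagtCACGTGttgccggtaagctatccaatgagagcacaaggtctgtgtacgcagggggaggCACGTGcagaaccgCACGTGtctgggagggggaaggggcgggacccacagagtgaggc
Per1, chr11:69098699-69098948, plus strand: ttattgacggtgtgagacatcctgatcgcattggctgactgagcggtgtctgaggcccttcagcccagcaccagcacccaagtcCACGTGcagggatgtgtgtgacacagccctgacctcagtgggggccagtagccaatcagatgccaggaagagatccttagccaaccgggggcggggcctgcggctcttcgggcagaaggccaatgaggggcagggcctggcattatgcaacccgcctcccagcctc
Tef, chr15:81811164-81811413, plus strand: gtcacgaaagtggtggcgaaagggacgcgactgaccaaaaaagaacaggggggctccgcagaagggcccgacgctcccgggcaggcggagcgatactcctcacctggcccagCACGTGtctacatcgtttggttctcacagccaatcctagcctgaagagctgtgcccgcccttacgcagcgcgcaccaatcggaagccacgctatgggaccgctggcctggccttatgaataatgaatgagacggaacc
Per3, chr4:151044666-151044915, minus strand: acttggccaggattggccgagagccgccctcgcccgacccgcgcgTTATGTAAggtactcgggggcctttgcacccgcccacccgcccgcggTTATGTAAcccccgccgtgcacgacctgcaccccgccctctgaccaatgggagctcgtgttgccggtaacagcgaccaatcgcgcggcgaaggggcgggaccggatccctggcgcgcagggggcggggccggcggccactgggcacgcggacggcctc
Hlf, chr11:90390918-90391167, minus strand: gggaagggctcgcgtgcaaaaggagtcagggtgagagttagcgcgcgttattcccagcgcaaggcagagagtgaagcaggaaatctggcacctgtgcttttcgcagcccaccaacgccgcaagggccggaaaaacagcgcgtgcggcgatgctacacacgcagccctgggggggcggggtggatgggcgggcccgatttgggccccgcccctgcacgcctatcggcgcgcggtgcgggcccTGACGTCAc
Arntl, chr7:113207532-113207555, plus strand: ggcagaaaGTAGGTCAgggacgga
The windows of Dbp, Nr1d1 and Nr1d2 held none of these letters, which says only that they are not in these windows. A match is a description of the sequence.

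Per length, Tef was the most abundant member and Per2, Ciart and Per3 the least. Across the 17 hypothalamic libraries without Sham 1, the median level was 66.7 FPKM for Tef, 26.2 for Nr1d2, 21.0 for Dbp, 18.7 for Nr1d1, 17.0 for Hlf, 11.1 for Per1, 8.62 for Arntl, 5.07 for Per3, 4.30 for Ciart and 4.27 for Per2. Over these libraries Dbp ran from 16.5 to 35.0 FPKM, Per1 from 6.50 to 19.3 FPKM and Tef from 51.3 to 77.5 FPKM. Across the 10 members, the highest hypothalamic group mean lay in Sham_GH for 9, all except Arntl, whose highest was in Sham.

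**Figure D1:**
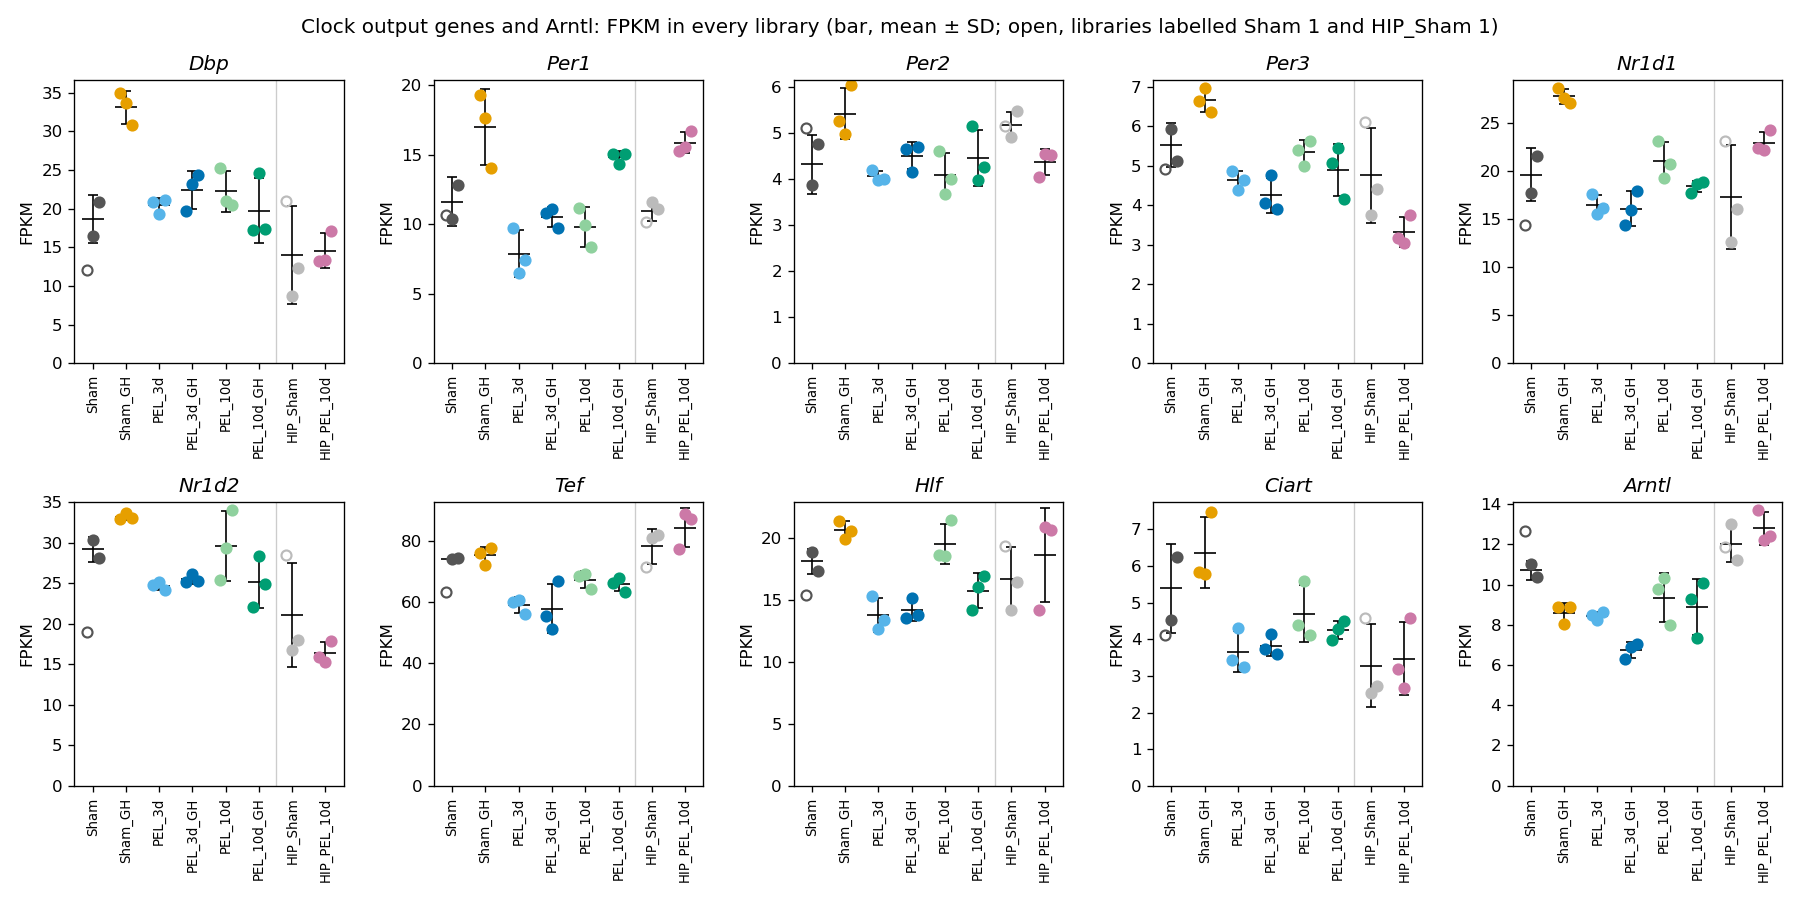
FPKM (y axis, from 0) of each of the 10 genes in every library of the 8 groups (x axis), with a horizontal bar and whiskers for the mean ± SD of the libraries used. Open circles are the libraries labelled Sham 1 (left out of its mean) and HIP_Sham 1 (kept in it). The 3 Sham_GH libraries lie above all other libraries for Dbp, Nr1d1 and Per3 in hypothalamus.

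Sham_GH against Sham compares mice with and without growth hormone, none of them lesioned. Dbp, Per1 and Nr1d1 rose, and no member fell. Dbp, the transcription factor gene, was at 35.0, 33.6 and 30.8 FPKM in Sham_GH and at 16.5 and 20.9 FPKM in Sham. The groups did not overlap, and Dbp was 1.81-fold higher (log2 fold change 0.85 ± 0.10 standard error, adjusted p = 0.00222, edgeR). Per1, the period gene that also answers acutely to light and hormones, was at 19.3, 17.6 and 14.0 FPKM against 10.4 and 12.9 FPKM, a 1.53-fold rise (log2 0.61 ± 0.10, adjusted p = 0.0168). Every Sham_GH library again lay above both Sham libraries. Nr1d1, the Arntl repressor, was at 28.7, 27.7 and 27.1 FPKM against 17.7 and 21.6 FPKM, a 1.43-fold rise (log2 0.52 ± 0.08, adjusted p = 0.0114). These 3 of 10 members stand beside 0.798% of 14539 genes called higher and 1.09% called in either direction.

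The other 7 members had smaller fold changes and did not pass the test. Per2, Per3, Hlf and Nr1d2 had log2 fold changes of 0.34, 0.28, 0.21 and 0.19, with adjusted p of 0.168, 0.137, 0.141 and 0.131. Ciart had 0.31 ± 0.16 (adjusted p = 0.393) and Tef 0.03 ± 0.05 (adjusted p = 0.806). Arntl went the other way, at 8.88, 8.03 and 8.88 FPKM in Sham_GH and 11.02 and 10.4 FPKM in Sham, with a log2 fold change of -0.28 ± 0.09 (adjusted p = 0.177). On CPM, counts scaled to library size with TMM, the libraries of 8 members lay wholly higher and those of Arntl wholly lower in Sham_GH, beside 16.9% and 16.0% of all genes. Ciart is one of the 8, though its FPKM overlapped. The median log2 fold change was 0.30 over the members and 0.00 over all genes tested.

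The 3 calls rest on single Sham libraries to different degrees. Dbp was called in each of the 5 fits with 1 library left out, with a highest adjusted p of 0.0190 without Sham 2. Per1 and Nr1d1 were no longer called without Sham 2 (adjusted p = 0.136 and 0.0760) or without Sham_GH 1 (0.0630 and 0.0585). With the library labelled Sham 1 put back, where Dbp was at 12.0 FPKM, its log2 fold change was 1.01 but no member was called (adjusted p = 0.697 for Dbp), and 0.0% of all genes were.

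PEL_3d against Sham compares lesioned mice at day 3 with Sham-operated mice, both without growth hormone. Here 7 members fell and none rose, beside 18.2% of 14887 genes called lower and 40.5% called in either direction. Tef, a PAR bZIP gene, was at 60.1, 60.6 and 56.01 FPKM against 73.9 and 74.2 FPKM, 1.28-fold lower (log2 -0.35 ± 0.06, adjusted p = 0.00136). Its partner Hlf was at 15.4, 12.7 and 13.4 FPKM against 18.9 and 17.4 FPKM, 1.35-fold lower (log2 -0.43 ± 0.09, adjusted p = 0.00362). For both genes every lesioned library lay below both Sham libraries. Arntl was at 8.48, 8.25 and 8.62 FPKM against 11.02 and 10.4 FPKM (log2 -0.37 ± 0.09, adjusted p = 0.00925). Per1, at 9.73, 6.50 and 7.45 FPKM against 10.4 and 12.9 FPKM, was 1.33-fold lower (log2 -0.41 ± 0.14, adjusted p = 0.0360). Arntl, the activator gene, and Per1, a gene it drives, were lower in the same libraries, and a link between these changes was not tested. Nr1d2, Per3 and Nr1d1 had log2 fold changes of -0.26, -0.28 and -0.27, with adjusted p of 0.0120, 0.0449 and 0.0469. Without Sham 2 these fold changes were -0.20, -0.17 and -0.40, and without Sham 3 they were -0.33, -0.39 and -0.13.

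Unlike the other PAR bZIP genes, Dbp did not pass the test at day 3, and the difference between these genes was not tested. It was at 20.8, 19.3 and 21.1 FPKM in PEL_3d, overlapping Sham, with a log2 fold change of 0.11 ± 0.11 (adjusted p = 0.479). Ciart had -0.54 ± 0.21 (adjusted p = 0.0620) and Per2 -0.11 ± 0.11 (adjusted p = 0.469). The median over the members was -0.32, against -0.01 over all genes, and on CPM 8 members lay wholly lower, beside 29.5% of genes. Tef was called in each of the 5 fits that left out 1 library, and the other 6 members were not: without Sham 2 only Tef and Nr1d1 were called (2 of 10, beside 7.56% of genes called lower), without Sham 3 the count was 5 (9.96%), and without PEL_3d 3 it was 4 (12.9%). Without Sham 2 the adjusted p was 0.0632 for Hlf, 0.0951 for Arntl and 0.141 for Nr1d2, and without Sham 3 it was 0.412 for Nr1d1 and 0.295 for Per1. With the library labelled Sham 1 put back, no member was called, beside 11.4% of genes, and the log2 fold changes were -0.30 for Tef, -0.36 for Hlf and -0.43 for Per1.

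At day 10 without growth hormone no member passed the test against Sham, where 9.42% of 14790 genes were called. The members' log2 fold changes ran from -0.23 for Ciart to 0.24 for Dbp, with a lowest adjusted p of 0.169 for Tef; at an unadjusted p under 0.05, 1 member passed, beside 24.5% of genes, and DESeq2 called none. Hlf was at 18.7, 18.5 and 21.4 FPKM and Nr1d1 at 23.2, 19.3 and 20.8 FPKM, within or above their Sham levels. Tef, at 68.5, 69.1 and 64.0 FPKM, lay below both Sham libraries, as did Arntl on CPM, beside 19.4% of genes. With the library labelled Sham 1 put back, no member was called either, beside 1.84% of genes.

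PEL_10d against PEL_3d compares the lesioned hypothalamus between the days directly. Hlf, Nr1d1 and Tef were higher at day 10, beside 6.33% of 14807 genes called higher and 18.5% called in either direction. Hlf was 1.41-fold higher (log2 0.50 ± 0.09, adjusted p = 0.00451), Nr1d1 1.29-fold (0.36 ± 0.08, adjusted p = 0.0174) and Tef 1.15-fold (0.21 ± 0.06, adjusted p = 0.0396), and for each the libraries of the days did not overlap. On CPM this held for 4 members, Per3 being the other, beside 16.3% of genes, and Nr1d2 did not overlap in FPKM only. All 10 members had a log2 fold change above 0, with a median of 0.24, against 0.01 over all genes. Per1 had 0.41 ± 0.14 and did not pass (adjusted p = 0.0680). Without PEL_3d 3, Hlf alone was called (adjusted p = 0.0271, beside 1.84% of genes called higher), Nr1d1 having 0.0730, and Tef kept its call only without PEL_10d 3, with adjusted p up to 0.162.

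PEL_3d_GH against Sham_GH repeats the day 3 comparison in mice given growth hormone, with 3 libraries on each side. All 10 members fell, beside 25.1% of 14743 genes called lower and 52.1% called in either direction. Every library of PEL_3d_GH lay below every library of Sham_GH for all 10, as in 28.9% of genes. Nr1d1 was at 14.4, 15.99 and 17.98 FPKM against 28.7, 27.7 and 27.1 FPKM, 1.75-fold lower (log2 -0.81 ± 0.09, adjusted p = 4.15e-05). Dbp was at 19.6, 23.2 and 24.3 FPKM against 35.0, 33.6 and 30.8 FPKM, 1.52-fold lower (log2 -0.61 ± 0.09, adjusted p = 0.000452). Ciart was at 3.73, 4.14 and 3.60 FPKM against 5.84, 5.78 and 7.48 FPKM, 1.76-fold lower (log2 -0.81 ± 0.16, adjusted p = 0.00210). The repressor, the PAR bZIP gene and the inhibitor of the loop were each lower in every lesioned library.

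The period genes all fell in that comparison. Per1 and Per3 each had a log2 fold change of -0.67 (standard errors 0.09 and 0.10, adjusted p = 0.000227 and 0.000277), and Per2 one of -0.29 ± 0.10 (adjusted p = 0.0344). Hlf, Nr1d2 and Tef had -0.57, -0.41 and -0.40, with adjusted p of 9.13e-05, 0.000189 and 0.00418. Arntl, at 6.31, 6.88 and 7.06 FPKM, had its lowest level of any group, with a log2 fold change of -0.36 ± 0.10 (adjusted p = 0.0112). The median over the members was -0.59, against 0.00 over all genes. Of the 10, 8 were called in each of the 6 fits with 1 library left out. Arntl lost its call without PEL_3d_GH 1, Sham_GH 1 or Sham_GH 3 (adjusted p = 0.0522, 0.0511 and 0.0523). Per2 lost its call without PEL_3d_GH 1, PEL_3d_GH 2, Sham_GH 1 or Sham_GH 3, with adjusted p up to 0.156.

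At day 10 with growth hormone 8 members were lower than in Sham_GH, beside 13.3% of 14686 genes called lower and 31.0% called in either direction. Dbp was at 17.3, 24.6 and 17.4 FPKM, 1.71-fold lower (log2 -0.77 ± 0.13, adjusted p = 0.00153). Nr1d1 was at 17.8, 18.7 and 18.9 FPKM, 1.53-fold lower (log2 -0.61 ± 0.06, adjusted p = 5.74e-05). Both genes lay below all 3 Sham_GH libraries in every library. On CPM this held for 8 members, beside 21.1% of genes, and Per1 overlapped in FPKM. Ciart, Per3, Nr1d2 and Hlf had log2 fold changes of -0.68, -0.47, -0.42 and -0.41, with adjusted p from 0.00201 for Hlf to 0.00931 for Ciart. Per1 (-0.25 ± 0.08, adjusted p = 0.0394) and Tef (-0.21 ± 0.06, adjusted p = 0.0193) passed narrowly. With 1 library left out, Per1 kept its call only without Sham_GH 3, Tef lost its call without PEL_10d_GH 3, Sham_GH 1 or Sham_GH 3, and the other 6 called members kept theirs. Per1 had an adjusted p of 0.157 without Sham_GH 1 and Tef one of 0.0685 without Sham_GH 3, the highest for each. Per2 had -0.30 ± 0.11 (adjusted p = 0.0639), and Arntl 0.01 ± 0.12 (adjusted p = 0.957), its libraries overlapping Sham_GH.

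**Figure D2:**
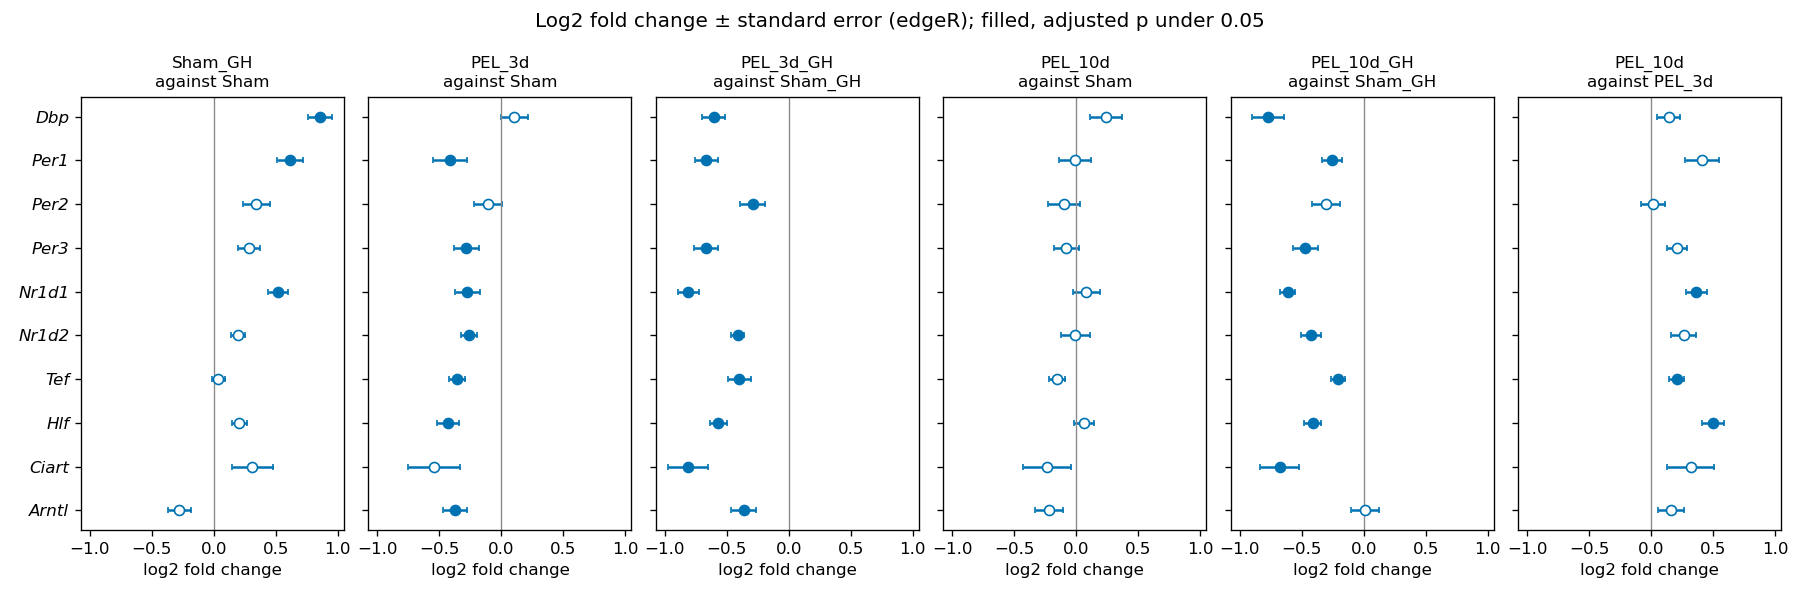
Log2 fold change (x axis) with its standard error for each gene (y axis) in 6 comparisons of hypothalamic groups, filled where the adjusted p was under 0.05 in edgeR. Dbp, Per1 and Nr1d1 are filled to the right of 0 for Sham_GH against Sham, all 10 genes to the left for PEL_3d_GH against Sham_GH, and none for PEL_10d against Sham. Panels that share Sham or Sham_GH are not independent.

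Both comparisons with Sham_GH share its 3 libraries, in which 9 members had their highest hypothalamic mean, so their values stand side by side and are not independent of each other or of Sham_GH against Sham. The difference between the lesion effects with and without growth hormone was tested directly as an interaction. At day 3 no member was called, and 0.0462% of 15164 genes were. Dbp had the largest difference, -0.72 ± 0.15 (log2, with minus without growth hormone, adjusted p = 0.131), followed by Nr1d1 at -0.54 ± 0.14 (adjusted p = 0.199). At day 10 no member was called either, and 0.0% of 15116 genes were. There Dbp differed by -1.02 ± 0.20 (adjusted p = 0.145), Nr1d1 by -0.70 ± 0.12 (adjusted p = 0.109) and Hlf by -0.47 ± 0.11 (adjusted p = 0.194). At an unadjusted p under 0.05, 3 members passed at day 3 and 5 at day 10, beside 10.5% and 9.04% of genes. With DESeq2, 2 members passed the adjusted threshold at day 3, Dbp and Nr1d1, and 3 at day 10, those 2 and Hlf, beside 0.994% and 0.674% of genes. With the library labelled Sham 1 put back, edgeR called no member and 0.0% of genes at either day. The loss of the calls with edgeR does not show that the lesion acted alike with and without growth hormone.

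In lesioned mice no member passed the test for growth hormone. PEL_3d_GH against PEL_3d called 0.027% of 14798 genes, and PEL_10d_GH against PEL_10d 0.0% of 14763. Per1 had the largest log2 fold change in both, 0.37 ± 0.12 at day 3 (adjusted p = 0.684) and 0.36 ± 0.10 at day 10 (adjusted p = 0.712). It was at 15.04, 14.3 and 15.1 FPKM in PEL_10d_GH and at 11.2, 9.93 and 8.34 FPKM in PEL_10d, and these libraries did not overlap. On CPM the libraries at day 3 lay wholly higher for 3 members and lower for 1, Arntl (4.85% and 7.48% of genes). The 3 higher ones, Per1, Per2 and Nr1d2, overlapped in FPKM. At day 10 the libraries lay wholly higher for 1 member and lower for 2 (6.44% and 4.99%). Dbp had 0.15 ± 0.10 at day 3 and -0.17 ± 0.15 at day 10. At an unadjusted p under 0.05, 2 members passed at day 3 and 3 at day 10, beside 6.8% and 6.14% of genes, and DESeq2 called none of the members at either day.

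Dbp and Arntl lie on opposite sides of the loop, and their FPKM ratio is given here by group. The ratio was 1.49 and 2.01 in Sham, 0.949 in the library labelled Sham 1, and between 3.46 and 4.19 in Sham_GH. Dbp and Arntl each separated these Sham_GH libraries from Sham 2 and Sham 3 by themselves. In PEL_3d the ratio was between 2.34 and 2.45, and in PEL_3d_GH between 3.11 and 3.45, above every PEL_3d library. Arntl alone also separated these libraries, at 6.31 to 7.06 FPKM in PEL_3d_GH and 8.25 to 8.62 FPKM in PEL_3d, while Dbp overlapped. At day 10 it ran from 2.03 to 2.59 without and from 1.73 to 3.35 with growth hormone, and these groups overlapped. In hippocampus it ran from 0.672 to 1.76, and the highest value belonged to the library labelled HIP_Sham 1.

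**Figure D3:**
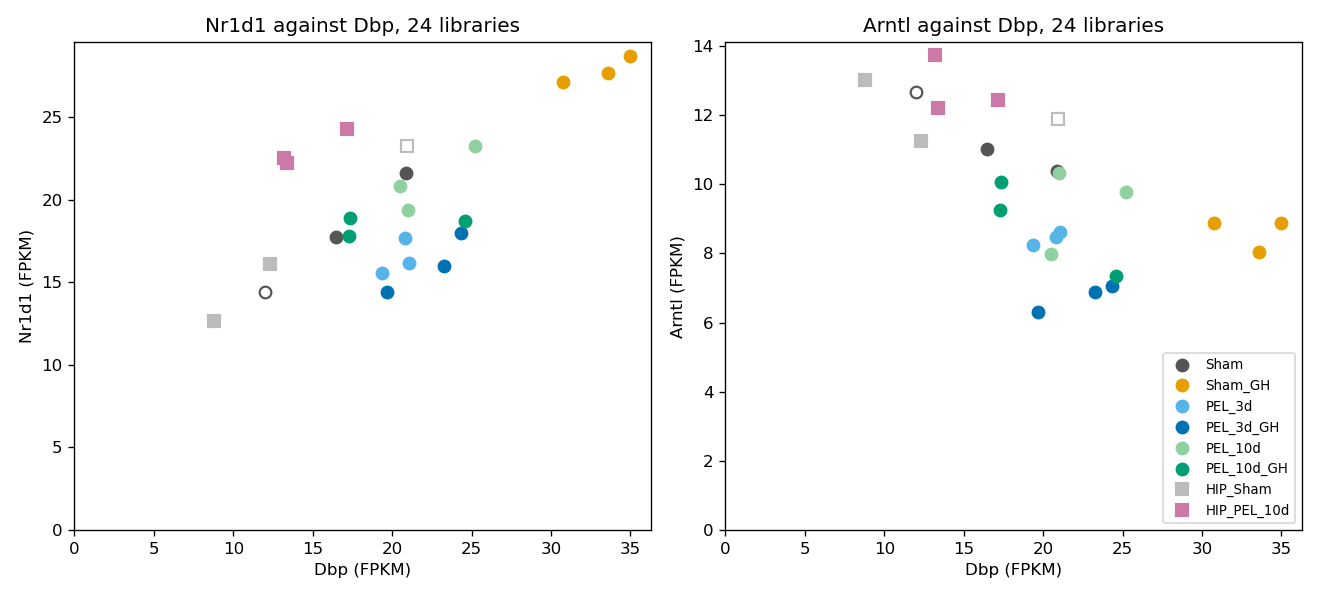
Nr1d1 (left) and Arntl (right) in FPKM (y axes) against Dbp in FPKM (x axes) in all 24 libraries, circles for hypothalamus and squares for hippocampus, both axes from 0. Open symbols are the libraries labelled Sham 1 and HIP_Sham 1. The 3 Sham_GH libraries lie alone above 30 FPKM of Dbp, with Nr1d1 between 27.1 and 28.7 FPKM and Arntl between 8.03 and 8.88 FPKM.

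Over the 17 hypothalamic libraries, Nr1d1 ranked 4 of 14298 genes by its Pearson correlation with Dbp on the log2(CPM + 1) scale (r = 0.789). With the group means removed it was 0.709. The other members had r from 0.424 for Tef to 0.632 for Per3, and Arntl had -0.187. Npcd (r = 0.896), Fgfr3 (0.808) and Them6 (0.796) lay above Nr1d1. At the other end were Iqcc (-0.814) and Pih1d2 (-0.795). Hlf and Nr1d1 (0.848) were the most alike of all pairs of members, and Hlf and Nr1d2 followed (0.841). With the group means removed these were 0.25 and 0.529, Dbp had -0.035 with Per2 and 0.0379 with Nr1d2, and Dbp and Nr1d1 were the most alike pair. These values describe libraries that share groups and tissue, and are given with no test.

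A list of 23 further clock genes held calls in both directions. In Sham_GH against Sham, Usp2, a deubiquitinase gene with clock-driven transcription, rose (log2 0.87 ± 0.14, adjusted p = 0.0117) and Noct, which encodes nocturnin, fell (-0.31 ± 0.05, adjusted p = 0.0112). The remaining 21, with Clock, Cry1 and Cry2 among them, did not pass. In PEL_3d against Sham, 3 rose and 5 fell, where 18.2% of all genes were called lower and 40.5% in either direction. Timeless rose most (0.95 ± 0.20, adjusted p = 0.00394), with its binding partner Tipin (0.57 ± 0.14, adjusted p = 0.00766), and both are also known from DNA replication. Npas2, the gene of a CLOCK paralog (-0.66 ± 0.15, adjusted p = 0.00663), Arntl2, the paralog of Arntl (-0.65 ± 0.22, adjusted p = 0.0354), and Rorb, a receptor gene of the ROR family (-0.38 ± 0.08, adjusted p = 0.00498), fell. The median of the list was -0.11, against -0.01 over all genes.

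With growth hormone, 3 of the 23 rose and 6 fell at day 3, where 25.1% of all genes were called lower and 52.1% in either direction. Cry2, the gene of a cryptochrome repressor, fell most (-0.60 ± 0.09, adjusted p = 0.000342), followed by Btrc, which encodes an F-box protein that marks PER proteins for degradation (-0.49 ± 0.08, adjusted p = 0.000594). Clock fell by 0.28 on the log2 scale (adjusted p = 0.0103). At day 10 with growth hormone Cry2 (-0.25 ± 0.06, adjusted p = 0.0111) and Rora (-0.23 ± 0.07, adjusted p = 0.0234) fell and none rose, 2 of 23 beside 13.3% of all genes called lower and 31.0% in either direction, and at day 10 without it none of the 23 passed, beside 9.42%. The kinase genes Csnk1d, Csnk1e and Csnk1a1 were called in none of these 5 comparisons with Sham or Sham_GH.

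**Figure D4:**
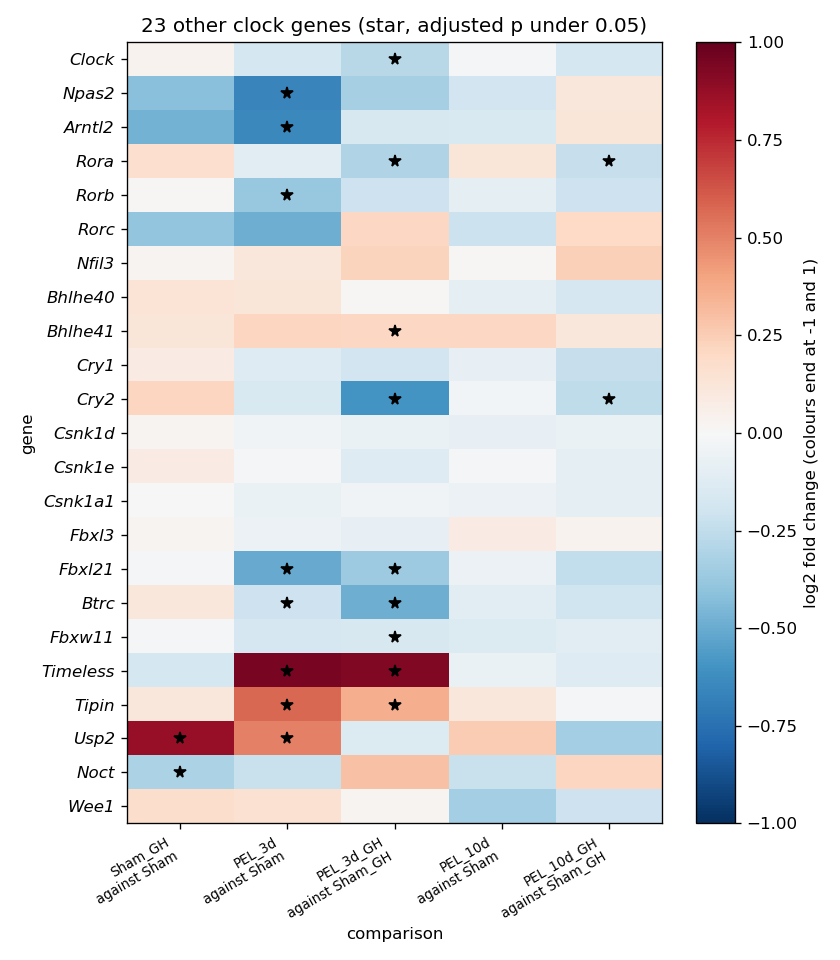
Log2 fold change (colour, ending at -1 and 1) of 23 further clock genes (y axis) in 5 comparisons (x axis), with a star where the adjusted p was under 0.05 in edgeR. Timeless is red and starred in both day 3 columns, Cry2 is blue and starred in both growth hormone lesion columns, and the PEL_10d against Sham column has no star.

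Genes of other lists also differed between these groups, and their part in the members' results was not tested. In Sham_GH against Sham, 4 of 12 glucocorticoid-responsive genes rose, with Sgk1 (log2 1.496 ± 0.17, adjusted p = 0.00190), Klf9 (0.44 ± 0.06, adjusted p = 0.00636) and Tsc22d3 (0.65 ± 0.09, adjusted p = 0.00705) among them, and their summed level was 405 to 514 FPKM against 332 to 387 FPKM. The list was above 0 in 11 of 12 genes there, and in 12 of 12 in each comparison of growth hormone in lesioned mice. Its medians there were 0.38, and 0.55 at day 3 and 0.49 at day 10, against -0.003, 0.006 and 0.0009 over all genes. In the lesioned mice Zbtb16 alone was called at day 3 (log2 1.91 ± 0.12, adjusted p = 0.000778), beside 0.027% of genes. At day 10 0 of 12 were called, beside 0.0% of genes. After the lesion at day 3 the summed level was 518 to 584 FPKM in PEL_3d and 737 to 854 FPKM in PEL_3d_GH, above the groups without the lesion, but the genes of the list went both ways. In PEL_3d against Sham 3 of the 12 rose and 3 fell (median 0.11), Cdkn1a (1.51) and Mt2 (0.80) rising and Tsc22d3 falling (-0.57 ± 0.08, adjusted p = 0.000242). In PEL_3d_GH against Sham_GH 3 rose and 2 fell (median 0.21), Cdkn1a (1.41) and Mt2 (1.18) rising and Klf9 falling (-0.56 ± 0.08, adjusted p = 0.000307). In PEL_10d against PEL_3d 2 of the 12 rose and 5 fell (median -0.09). Among these Klf9 rose (0.55 ± 0.08, adjusted p = 0.00232), and Cdkn1a (-0.998) and Ddit4 (-0.54) fell. At day 10 against Sham, Mt2 (0.41) and Cdkn1a (0.50) rose and none fell. At day 10 with growth hormone, Cdkn1a (0.60) and Mt2 (0.40) rose and Tsc22d3 fell (-0.34, adjusted p = 0.0394). Of all genes, 1.09% were called in Sham_GH against Sham, 40.5% and 52.1% at day 3 without and with growth hormone, and 9.42% and 31.0% at day 10. In PEL_10d against PEL_3d the share was 18.5%. The counts of this list and of those that follow are read against these shares.

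Among 10 immediate early genes, which mark recent neuronal activity, Fos (-1.23 ± 0.13, adjusted p = 0.00121) and Npas4 (-1.36 ± 0.23, adjusted p = 0.0145) fell in Sham_GH against Sham and all 10 were below 0. In PEL_3d against Sham 6 fell, Npas4 most (-1.84 ± 0.31, adjusted p = 0.00108), and in PEL_3d_GH against Sham_GH 2 rose and 5 fell. At day 10 without growth hormone none rose and Fosb fell (-1.02, adjusted p = 0.0374), with a list median of -0.39. In PEL_10d_GH against Sham_GH, where 8 members fell, Dusp1 (0.60), Fos (0.53) and Junb (0.38) rose and none fell, with a list median of 0.41. These calls were 2 of 10 genes in Sham_GH against Sham, 6 and 7 of 10 at day 3, and 1 and 3 of 10 at day 10.

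Of 10 suprachiasmatic nucleus markers, 9 were tested in Sham_GH against Sham and Lhx1 alone was called, higher (0.75 ± 0.13, adjusted p = 0.0178). Lhx1 fell in PEL_3d_GH against Sham_GH (-1.06 ± 0.19, adjusted p = 0.000912) and in PEL_10d_GH against Sham_GH (-0.76 ± 0.16, adjusted p = 0.00520). Syt10 (-0.54, adjusted p = 0.00797) and Six6 (-0.61, adjusted p = 0.0295) fell in PEL_3d against Sham, and Syt10 fell in PEL_3d_GH against Sham_GH (-0.47, adjusted p = 0.0134). The summed level of these markers was 29.2 FPKM in Sham 2, 58.4 FPKM in Sham 3 and 34.5 to 56.8 FPKM in Sham_GH. It was 27.05 to 43.3 FPKM in the hippocampus of HIP_PEL_10d, so the sum does not measure that nucleus alone.

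The levels of cell type markers differed after the lesion, and in bulk RNA fewer cells of a type cannot be told apart from less RNA per cell. In Sham_GH against Sham no gene of the neuron, astrocyte, oligodendrocyte or microglia lists was called, and of 5 endothelium markers 1 was higher and 1 lower. Microglia and macrophage markers summed to 866 to 1213 FPKM in PEL_3d against 89.7 to 92.8 FPKM in Sham, with all 10 called higher, and to 1135 to 1594 FPKM in PEL_3d_GH against 72.9 to 87.9 FPKM in Sham_GH. Neuron markers fell in 3 of 5 genes in PEL_3d and in 4 of 5 in PEL_3d_GH (list medians -0.28 and -0.59), where the members' medians were -0.32 and -0.59. Astrocyte markers rose in 5 of 6 genes and fell in 1 in both day 3 comparisons. Of 12 hypothalamus markers 1 rose and 8 fell in PEL_3d, and 1 rose and 6 fell in PEL_3d_GH. Endothelium markers rose in 3 of 5 genes in both, and 1 fell in PEL_3d_GH.

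At day 10 microglia and macrophage markers summed to 360 to 681 FPKM without and 551 to 862 FPKM with growth hormone. Against Sham and Sham_GH, astrocyte markers rose in 4 of 6 genes in both comparisons (medians 0.89 and 1.09). Endothelium markers rose in 2 of 5 genes without and 3 of 5 with growth hormone. Of 12 hypothalamus markers 3 fell without growth hormone, and 2 rose and 4 fell with it. Neuron markers fell in 2 of 5 genes without growth hormone, where no member was called, and in 5 of 5 with it (median -0.31). Oligodendrocyte markers rose in 3 of 6 genes in PEL_10d against Sham and in 6 of 6 in PEL_10d_GH against Sham_GH (median 0.73). In PEL_10d against PEL_3d they rose in 6 of 6 (median 0.55), and microglia and macrophage markers fell in 7 of 10 (median -0.93). There 1 of 6 astrocyte markers rose and 3 fell, and 3 of 12 hypothalamus markers rose and 1 fell. Of 5 neuron markers 1 rose and 1 fell, and of 5 endothelium markers 2 fell. Blood markers rose in 5 of 5 genes in PEL_10d_GH against Sham_GH (median 2.49). Hypothalamus markers summed to 6755 FPKM in PEL_10d_GH 3, and to 1308 and 1816 FPKM in the other libraries of its group. The 6 members other than Tef and Per1 called at day 10 with growth hormone had log2 fold changes from -0.77 to -0.41. The part of the marker differences in the members' values was not tested.

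In hippocampus, HIP_PEL_10d against HIP_Sham called no member and 0.0% of 14039 genes. Nr1d1 was at 22.5, 22.2 and 24.3 FPKM in HIP_PEL_10d and at 23.2, 12.6 and 16.1 FPKM in HIP_Sham, where the first value is the library labelled HIP_Sham 1. Without that library Nr1d1 was called (log2 0.65, adjusted p = 0.0148), and with it the log2 fold change was 0.48 ± 0.17 (adjusted p = 0.471). Over all alternatives its adjusted p ran from 0.0148 to 0.938. Nr1d1 was the 1 member called without that library, beside 2.09% of genes called higher and 6.15% in either direction, and the call rests on HIP_Sham 2 and 3, in which choroid plexus markers summed to 4359 and 5462 FPKM, against 39.2 to 801 FPKM in HIP_PEL_10d and 19.1 FPKM in HIP_Sham 1. All 9 of these markers had a log2 fold change below 0 in HIP_PEL_10d against HIP_Sham (median -3.38, none called), and their part in the value of Nr1d1 was not tested. Per1 was at 15.3, 15.6 and 16.7 FPKM against 10.2, 11.6 and 11.1 FPKM, with groups that did not overlap, and had a log2 fold change of 0.41 ± 0.13 (adjusted p = 0.430). On CPM, Per1 and Nr1d1 lay wholly higher, 2 of 10 members beside 12.5% of genes, though Nr1d1 overlapped in FPKM, where Per2 and Per3 lay wholly lower. At an unadjusted p under 0.05, 3 members passed, beside 10.2% of genes, and DESeq2 called none.

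The library labelled HIP_Sham 1 lay in the hypothalamic range for 9 members, all except Arntl, and outside the range of the other hippocampal libraries for 6, which were Dbp, Per1, Per3, Nr1d2, Tef and Ciart. Nr1d2 was at 28.5 FPKM there and between 15.3 and 17.9 FPKM in the other hippocampal libraries, and Per3 was at 6.10 FPKM and between 3.06 and 4.41 FPKM in the others. Dbp was at 20.96 FPKM and between 8.75 and 17.2 FPKM in the others. Arntl was at 11.9 FPKM there, within the hippocampal range of 11.2 to 13.7 FPKM and above the highest hypothalamic level of 11.02 FPKM. In the library labelled Sham 1, Dbp was at 12.0 FPKM and Arntl at 12.7 FPKM, each outside the range of the other hypothalamic libraries. PEL_10d against HIP_PEL_10d, which uses neither library, called 8 members, beside 60.6% of 14561 genes (30.9% higher, 29.7% lower in hypothalamus). The same 8 did not overlap on CPM, beside 36.9% of genes higher and 30.9% lower, though Per2 and Nr1d1 overlapped in FPKM. Nr1d2 (log2 0.64 ± 0.11, adjusted p = 0.000871), Per3 (0.43 ± 0.10, adjusted p = 0.00568) and Dbp (0.36 ± 0.13, adjusted p = 0.0409) were higher in hypothalamus. Arntl (-0.70 ± 0.10, adjusted p = 0.000290), Per1 (-0.69 ± 0.11, adjusted p = 0.000460), Tef (-0.56), Nr1d1 (-0.37) and Per2 (-0.34) were lower. Microglia and macrophage markers were higher in hypothalamus in 10 of 10 genes (median 1.99), and astrocyte markers in 5 of 6 (median 0.90). Of 5 neuron markers 4 were lower and 1 higher (median -1.42). The part of these markers in the members' values was not tested. Dbp kept its call only without HIP_PEL_10d 3, with adjusted p up to 0.156, and Per2 lost its call without HIP_PEL_10d 2, HIP_PEL_10d 3 or PEL_10d 2, with adjusted p up to 0.0626. For the difference of the lesion effect at day 10 between the tissues no member was called, none passed at an unadjusted p under 0.05 (14.9% of genes), and DESeq2 called none, where 1.88% of 15093 genes were called. Without HIP_Sham 1 Nr1d1 alone was called (-0.60, adjusted p = 0.0353), beside 4.22% of genes called lower and 10.7% in either direction. With the library labelled Sham 1 put back, no member was called, beside 0.63% of genes.

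Counts of Dbp and Nr1d1 need a reservation, because these genes overlap Sphk2 and Thra on the opposite strand and their deposited counts were not whole numbers in any of the 24 libraries. Dbp lies on chromosome 7 from 45705088 to 45710203 and Nr1d1 on chromosome 11 from 98767932 to 98775333 of GRCm38. The other members had whole counts, though Per3 overlaps Camta1 on its own strand, and Tef, Ciart and Arntl overlap antisense genes. Per2 (chr1:91415982-91459324) and Nr1d2 (chr14:18204054-18239127) overlap none. Whether counting used strand is not given, so reads of a pair cannot be told apart. In Sham_GH against Sham, Sphk2 had a log2 fold change of 0.07 ± 0.11 and Thra one of 0.02 ± 0.05, and neither was called. In PEL_3d against Sham and PEL_3d_GH against Sham_GH, Thra fell with Nr1d1 (-0.31 ± 0.07, adjusted p = 0.00465, and -0.39 ± 0.10, adjusted p = 0.00670). At day 10 with growth hormone Thra was not called (-0.03 ± 0.07, adjusted p = 0.778), where Nr1d1 was. In PEL_10d against PEL_3d Thra rose (0.23 ± 0.06, adjusted p = 0.0348), and it was lower in PEL_10d than in HIP_PEL_10d (log2 -1.16), the direction of Nr1d1 in each. In HIP_PEL_10d against HIP_Sham Thra had 0.53 ± 0.20 (adjusted p = 0.484).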

How the data were processed

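According to the study's methods, reads were aligned with Hisat2, counted per gene with featureCounts and compared with DESeq2; per the labels, the genome was GRCm38 (mm10). For 24 libraries, the authors deposited 2 columns each, the estimated count of every gene and its FPKM. Total counts ranged from 15095267 to 17973494 (median 15883700). Of the deposited count values, 8.22% were not whole and were rounded. Of 22274 identifiers, 22219 were matched to symbols. FPKM, normalized by the authors for length and depth, was used as deposited. Its ratio to CPM was not constant for a gene across libraries, and the overlap of libraries was counted on CPM with TMM library sizes.

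Groups were compared with edgeR 4.0.16 (R 4.3.3) quasi-likelihood tests after TMM, for genes passing filterByExpr (minimum count 10), each fit holding only its groups, with Benjamini-Hochberg adjustment over all genes tested and a threshold of 0.05 ("called"). Standard errors were derived from the F statistic of these tests, as the absolute log2 fold change divided by the square root of F. Exact two-sided permutation tests of FPKM cannot go below p = 0.1 for 3 against 3 or 0.2 for 3 against 2 libraries. Alternatives were DESeq2 1.42.0, its size factors in edgeR, no filter, the replicate block, 1 fit over all groups, all 3 Sham libraries and each library left out. The fit was tested on simulated data. Every member was described. From each further list, up to 3 called genes per comparison with the smallest adjusted p were taken by rule. Arntl2, Tipin, Clock and the casein kinase genes were named after their values were seen. The genes most like Dbp had a mean CPM of at least 1. The members and lists were chosen with earlier results of these data known. Sequences are from RefSeq, GRCm38.p6, and positions from GENCODE. Tables were handled with pandas 2.3.3 and drawn with matplotlib 3.10.9.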

Additional observations from a re-analysis of the deposited data

How the results depend on the processing

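No member's called change turned direction under any alternative. Of the values of single members, 1456 kept direction and side of the threshold, 69 lost and 21 gained a call, and 54, called in neither fit, changed sign. With all 3 Sham libraries the members called fell from 7 to 0 in PEL_3d against Sham and from 3 to 0 in Sham_GH against Sham, where 1 fit over all groups called 1. For the growth hormone interaction DESeq2 called 2 at day 3 and 3 at day 10, and no filter called 1 at day 10, where edgeR called 0. The causes were not tested. With 1 library left out, the members called ranged from 2 to 6 (PEL_3d against Sham), 1 to 3 (PEL_10d against PEL_3d), 8 to 10 (PEL_3d_GH against Sham_GH), 6 to 8 (PEL_10d_GH against Sham_GH), 1 to 3 (Sham_GH against Sham), 0 to 2 (interaction at day 3, the 2 without PEL_3d_GH 3), 0 to 1 (interaction at day 10, the 1 without PEL_10d 1), 0 to 1 (hippocampus, the 1 without HIP_Sham 1), 6 to 8 (PEL_10d against HIP_PEL_10d) and 0 to 1 (tissue interaction, the 1 without HIP_Sham 1). Replicate numbers gave no regular sign of pairing. Correlations of same-numbered deviations ran from -0.435 to 0.361, with all 3 over 0.1 in 0 of 7 comparisons. With so few libraries per group these values cannot exclude pairing or a shared batch. The replicate block called 6 members in PEL_3d against Sham, 4 in PEL_10d against PEL_3d, 9 in PEL_10d_GH against Sham_GH and 7 in PEL_10d against HIP_PEL_10d, and the same number as without it elsewhere. Over all genes, edgeR and DESeq2 called 159 and 266 (Sham_GH against Sham), 4 and 59 (PEL_3d_GH against PEL_3d), 0 and 39 (PEL_10d_GH against PEL_10d), 7 and 142 and 0 and 96 (interactions at day 3 and day 10), 0 and 231 (hippocampus) and 284 and 822 (tissue interaction). Per gene, 2 Sham libraries set the precision of every comparison with Sham, and the lowest counts were those of Ciart.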
